A study of Sus scrofa with 6 samples.

Results

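The genes examined here encode the machinery that stores transmitter in synaptic vesicles and releases it at nerve terminals. RNA came from the cervical spinal cord of 6 male pigs, all 140 days old. Of 37 genes listed by symbol, 34 had a row of that name among the 28965 genes of the deposited tables, and all 34 passed the filter on low counts, which left 14566 genes for testing. VAMP1, VAMP2 and UNC13A had no row under those names. VAMP2 was found through a table of gene identifiers (ENSSSCG00000034868) and is given apart from the 34, while VAMP1 and UNC13A were not analysed here. The comparison sets 3 pigs with a maternal UBE3A deletion (hereafter deletion) against 3 wild-type pigs. UBE3A encodes a ubiquitin ligase that mature neurons express from the maternal copy, and people who lack that copy have Angelman syndrome. Each library came from 1 animal, and the labels name no other allele or agent. The labels do not say which segment of the cervical cord was taken or how the deletion was made, and the titles put the word brain before the tissue.

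A vesicle docks at the active zone, a protein scaffold on the inner face of the terminal. A SNARE protein on the vesicle, a synaptobrevin encoded by VAMP genes, zips together with syntaxin and SNAP25 on the plasma membrane, and calcium binding to a synaptotagmin lets the membranes fuse. The ATPase NSF then takes the SNARE bundle apart, and dynamin and its partners retrieve the membrane for reuse. Several of these steps are served by paralogs that differ between neuron types. In rodents SYT2, CPLX1 and VAMP1 are known from caudal and fast-firing neurons, motor neurons among them, whereas SYT1, CPLX2 and VAMP2 are known from forebrain.

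Libraries held between 20294026 and 22492366 exon reads in the deletion group and between 17181003 and 21298505 in wild type. Levels are given as CPM, the reads of a gene scaled to library size by the TMM method, and 3 reads correspond to between 0.13 and 0.176 CPM. Glial genes of the cord were abundant in both groups: MBP of myelin averaged 72237 CPM in deletion and 74172 CPM in wild-type libraries, and GFAP of astrocytes 19403 and 20159 CPM. UBE3A stood at 21.4, 27.1 and 21.4 CPM in deletion replicates 1 to 3, against 57.0, 65.5 and 60.6 CPM in wild-type replicates 1 to 3, so the groups did not overlap and each library had the level its label calls for (log2 fold change -1.39, SE 0.13, edgeR quasi-likelihood adjusted p 0.0253). That call was lost without wild-type replicate 1 or any of the 3 deletion replicates, where the log2 fold change stayed between -1.51 and -1.33 and the edgeR quasi-likelihood adjusted p lay between 0.0728 and 0.152. Wild-type replicate 3 stood apart from the other 5 libraries. It had 1.97 CPM of HOXC8, a gene picked with its values in view, where the other 5 had 23.2 to 32.1 CPM, and it also had the lowest mean of the general neuron markers.

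Of the 34 release genes, 33 had a positive log2 fold change (deletion over wild type) and 1, STX1A, a negative one. Over all 14566 tested genes 56.7% were positive. The median log2 fold change of the release genes was 0.86, with quartiles of 0.43 and 1.03 and a range of -0.06 to 2.56, where the median of all tested genes was 0.05. By edgeR's quasi-likelihood test a single member, SYNGR1, was higher past the threshold of an adjusted p under 0.05 and none was lower; 0.178% of all tested genes were higher and 0.844% lower by the same rule. The count depended on the method: DESeq2 called 10 members higher, and no member was called under RLE or total count scaling, with the first number of the animal ID (14 or 15, hereafter the ID prefix) as a block, or in prefix 15 alone. Over all genes the count of higher calls ranged over these settings from 0, with the block and in prefix 15 alone, to 577 by DESeq2, where the edgeR test gave 26. In 19 of the 34 genes all 3 deletion libraries lay above all 3 wild-type libraries, and in none did they lie below; the background was 15.2% higher and 11.2% lower. At an unadjusted p under 0.05, 20 were higher and 0 lower, against backgrounds of 11.1% and 9.09%. The authors' deposited table lists 19 of the 34 as higher at a false discovery rate under 0.05 and none as lower, where 3.39% of the genes with a rate in that table were higher. The study tests animals and not genes, so these shares describe the members and are not a test of the group. In bulk tissue a different number of neurons and a different amount of RNA per neuron cannot be told apart.

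**Figure D1:**
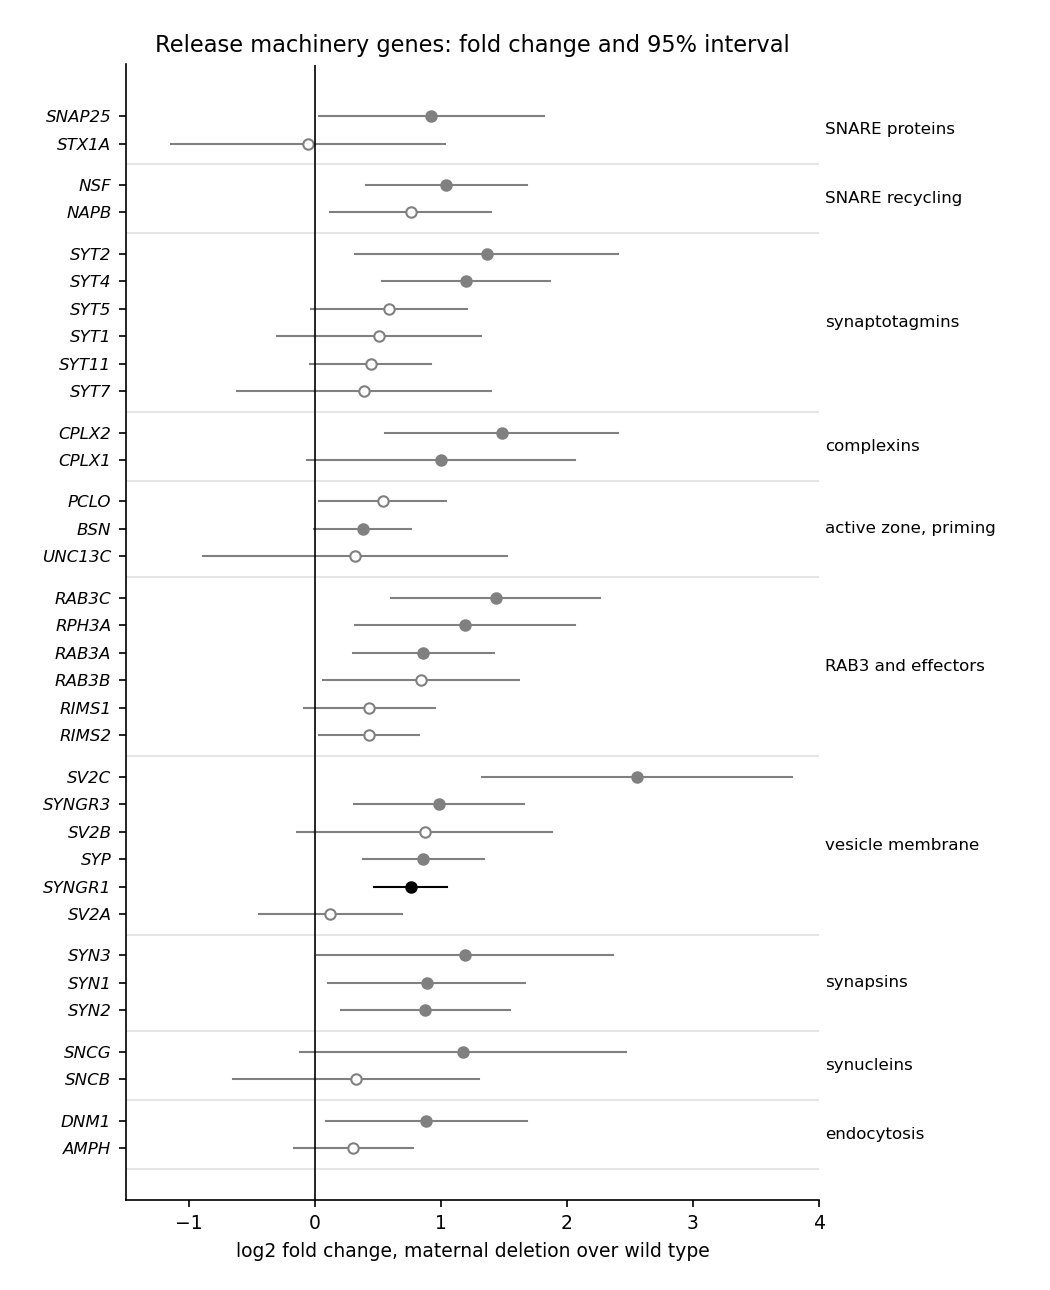
Log2 fold change of each release gene, deletion over wild type (x axis), with its 95% interval from the edgeR fit, grouped by role. Filled points mark genes whose 3 deletion libraries all lie above the 3 wild-type libraries, open points mark overlap, and black marks SYNGR1, which is past the threshold; 33 of 34 points lie right of 0.

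The vesicle membrane proteins held both the best supported difference and the largest. SYNGR1, the tetraspan vesicle protein synaptogyrin-1, stood at 175, 212 and 179 CPM in deletion replicates 1 to 3, against 106, 117 and 110 CPM in wild-type replicates 1 to 3. The wild-type libraries lay within 1.11-fold of each other and the groups did not overlap, with means of 188 ± 20.2 and 111 ± 5.78 CPM (SD, n = 3 each). SYNGR1 rose by 0.76 on the log2 scale (SE 0.12, 95% interval 0.47 to 1.05; edgeR quasi-likelihood adjusted p 0.0497). Its log2 difference was 0.72 in the pair of animals whose ID begins with 14 and 0.77 between those whose ID begins with 15. The call lay at the edge of the threshold. It was lost without each library except wild-type replicate 3, with edgeR quasi-likelihood adjusted p of 0.134, 0.208 and 0.112 without deletion replicates 1 to 3 and 0.174 and 0.0744 without wild-type replicates 1 and 2; without wild-type replicate 3 it was 0.0339. It was also lost under RLE scaling (0.0508), total count scaling (0.0633), with the ID prefix as a block (0.0897) and in prefix 15 alone (0.447).

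SV2C, a vesicle glycoprotein of the SV2 family and a known receptor of botulinum toxin A, had the largest fold change of the 34. Its level was 6.19, 20.4 and 9.51 CPM in the deletion libraries, against 1.17, 3.17 and 1.70 CPM in wild type. The lowest deletion library thus stood above the highest wild-type library, although deletion libraries differed 3.29-fold among themselves. The log2 fold change was 2.56 (SE 0.53, 95% interval 1.33 to 3.78; edgeR quasi-likelihood adjusted p 0.0699). SV2A, the most widespread SV2 and the target of the antiepileptic levetiracetam, gave 88.5, 65.1 and 135 CPM in deletion, against 93.7, 83.6 and 87.9 CPM in wild type. Here deletion replicate 1 lay within the wild-type range, replicate 2 below it and replicate 3 above it, with a log2 fold change of 0.12 (SE 0.24). SV2B gave 7.24, 8.82 and 18.7 CPM in deletion, against 4.17, 9.55 and 5.23 CPM in wild type, and overlapped (0.87, SE 0.43, and 0.29 without deletion replicate 3). By TPM, which corrects for gene length, the SV2 order in wild type was SV2A at a mean of 57.6, SV2B at 2.50 and SV2C at 2.09 TPM, and in deletion SV2A at 60.6, SV2C at 11.6 and SV2B at 4.42 TPM. SV2B and SV2C overlapped in wild type, where SV2B ran from 1.46 to 3.71 TPM and SV2C from 1.07 to 3.21 TPM.

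Synaptophysin, encoded by SYP and among the most abundant vesicle proteins, had 245, 331 and 308 CPM in deletion, against 161, 203 and 124 CPM in wild type. These groups did not overlap (log2 fold change 0.86, SE 0.21; edgeR quasi-likelihood adjusted p 0.0882). SYNGR3, another synaptogyrin, had 31.0, 46.0 and 37.7 CPM against 23.5, 23.4 and 11.2 CPM in wild type, with a log2 fold change of 0.98 (SE 0.29), and 0.64 without wild-type replicate 3. For SYNGR3 wild-type replicates 1 and 2 lay close together and replicate 3 below them.

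**Figure D2:**
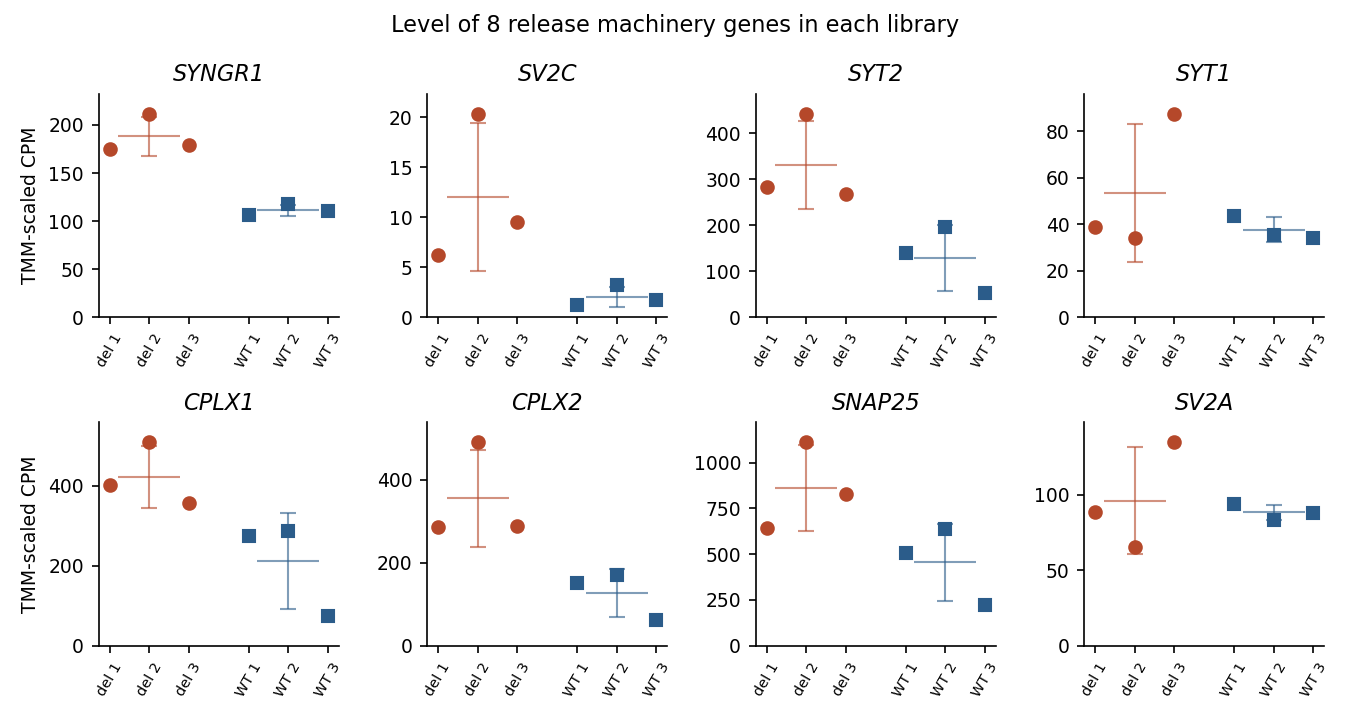
TMM-scaled CPM (y axis, from 0) of 8 release genes in each library, deletion (del) circles left and wild-type (WT) squares right; horizontal marks and bars are group means and SDs of 3 animals. SYNGR1 is tight within groups, wild-type replicate 3 is the lowest library for SYT2, CPLX1, CPLX2 and SNAP25, and deletion replicate 3 is the highest for SYT1 and SV2A.

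Among the SNARE proteins, SNAP25 was the release gene with the highest level per length, at a median of 756 TPM over the 6 libraries. It stood at 646, 1112 and 829 CPM in deletion, against 507, 635 and 222 CPM in wild type. The deletion libraries lay above wild type, but deletion replicate 1 and wild-type replicate 2 nearly met. The log2 fold change was 0.92 (SE 0.38, 95% interval 0.03 to 1.81; edgeR quasi-likelihood adjusted p 0.232). Without wild-type replicate 3 it was 0.53. STX1A, which encodes the plasma membrane syntaxin-1A, was scarce, with 2.10, 2.05 and 6.52 CPM in deletion and 3.64, 3.17 and 4.36 CPM in wild type. Deletion replicates 1 and 2 lay below all wild-type libraries and replicate 3 above them, and the log2 fold change of -0.06 (SE 0.47) went to -0.88 without deletion replicate 3 and to 0.22 without deletion replicate 2. VAMP2, matched by identifier and not by name, had 125, 101 and 116 CPM in deletion, against 96.5, 78.9 and 114 CPM in wild type. Its groups overlapped (log2 fold change 0.24, SE 0.16, 95% interval -0.13 to 0.61; edgeR quasi-likelihood adjusted p 0.478).

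The proteins that recycle SNAREs were both higher on average. NSF, the ATPase itself, had 272, 407 and 365 CPM in deletion, against 161, 233 and 114 CPM in wild type, without overlap (log2 fold change 1.04, SE 0.27; edgeR quasi-likelihood adjusted p 0.101). NAPB, the neuronal SNAP adaptor that brings NSF to the bundle, had 93.9, 148 and 168 CPM against 81.1, 104 and 57.4 CPM in wild type. Deletion replicate 1 lay below wild-type replicate 2, and the log2 fold change was 0.76 (SE 0.27), and 0.50 without wild-type replicate 3.

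The synaptotagmins showed several arrangements over the libraries. SYT2, a fast calcium sensor, had 282, 442 and 268 CPM in deletion, against 139, 195 and 51.5 CPM in wild type. All deletion libraries lay above wild type (log2 fold change 1.36, SE 0.45, 95% interval 0.32 to 2.41; edgeR quasi-likelihood adjusted p 0.152). SYT1, the other fast sensor, had 38.9, 33.8 and 87.5 CPM in deletion, against 43.7, 35.2 and 34.0 CPM in wild type. Deletion replicates 1 and 2 lay near the wild-type libraries, and replicate 3 held 2.59 times the level of replicate 2. The log2 fold change was 0.51 (SE 0.35, 95% interval -0.30 to 1.32), and -0.08 without deletion replicate 3. SYT7, a slower sensor of high calcium affinity, had 5.59, 6.24 and 17.2 CPM in deletion and 6.75, 9.07 and 6.38 CPM in wild type. Deletion replicates 1 and 2 lay below the wild-type range and replicate 3 above it, so the log2 fold change was 0.39 (SE 0.43) with all libraries and -0.37 without deletion replicate 3.

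SYT4, a synaptotagmin known from dense-core vesicles, had 15.0, 25.8 and 26.3 CPM in deletion, against 6.69, 12.4 and 10.1 CPM in wild type. The groups did not overlap (log2 fold change 1.20, SE 0.29; edgeR quasi-likelihood adjusted p 0.0885). SYT5, another calcium-binding member, had 19.7, 25.9 and 37.5 CPM against 22.4, 19.2 and 13.9 CPM in wild type and overlapped (0.59, SE 0.26, and 0.26 without deletion replicate 3). SYT11, which lacks calcium-dependent lipid binding, was the most abundant synaptotagmin per length at a median of 534 TPM. It had 1024, 1078 and 802 CPM in deletion, against 746, 549 and 843 CPM in wild type, and wild-type replicate 3, the lowest library for 16 of the members, was here the highest of its group (0.44, SE 0.21, and 0.27 without wild-type replicate 2).

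Complexins bind the assembled SNARE bundle and hold it ready for calcium. CPLX1 had 402, 509 and 356 CPM in deletion, against 273, 287 and 73.8 CPM in wild type. CPLX2 had 286, 491 and 288 CPM in deletion, against 150, 171 and 60.8 CPM in wild type. Neither gene overlapped between the groups, and in both wild-type replicate 3 was the lowest library by a wide margin. The log2 fold change was 1.00 for CPLX1 (SE 0.46; edgeR quasi-likelihood adjusted p 0.280) and 1.48 for CPLX2 (SE 0.40; edgeR quasi-likelihood adjusted p 0.104), and 0.53 and 1.08 without wild-type replicate 3.

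The contrast of caudal with forebrain paralogs was made as the ratio of TPM within each library, which does not depend on scaling. VAMP1 over VAMP2 was not analysed here. SYT2 exceeded SYT1 in every library, by 5.10, 9.18 and 2.15 times in deletion replicates 1 to 3 and by 2.24, 3.90 and 1.06 times in wild-type replicates 1 to 3. The mean log2 ratio was 2.22 ± 1.05 in deletion and 1.07 ± 0.94 in wild type (SD, n = 3 each), a difference of 1.15 with overlapping groups (exact two-sided permutation test, p = 0.3, adjusted over the 2 ratios 0.3). Replicate 3 had the lowest ratio in each group. In the animals of prefix 14 the difference was 1.19 and in those of prefix 15 it was 1.12.

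For the complexins the difference lay in the other direction. CPLX1 exceeded CPLX2 by 2.83, 2.09 and 2.49 times in deletion and by 3.68, 3.38 and 2.44 times in wild type. The mean log2 ratio was 1.29 ± 0.22 in deletion and 1.64 ± 0.31 in wild type (SD, n = 3 each), a difference of -0.35 (exact two-sided permutation test, p = 0.3, adjusted over the 2 ratios 0.3). Deletion replicates 1 and 3 lay above the lowest wild-type library, so the groups overlapped. The smallest p that 3 against 3 allows is 0.1, so neither test could pass 0.05. Without wild-type replicate 3 the differences were 0.65 for SYT2 over SYT1 and -0.53 for CPLX1 over CPLX2, and without deletion replicate 3 they were 1.70 and -0.36. SYT2 and CPLX2, which the contrast puts on opposite sides, had the larger fold change of their pairs.

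**Figure D3:**
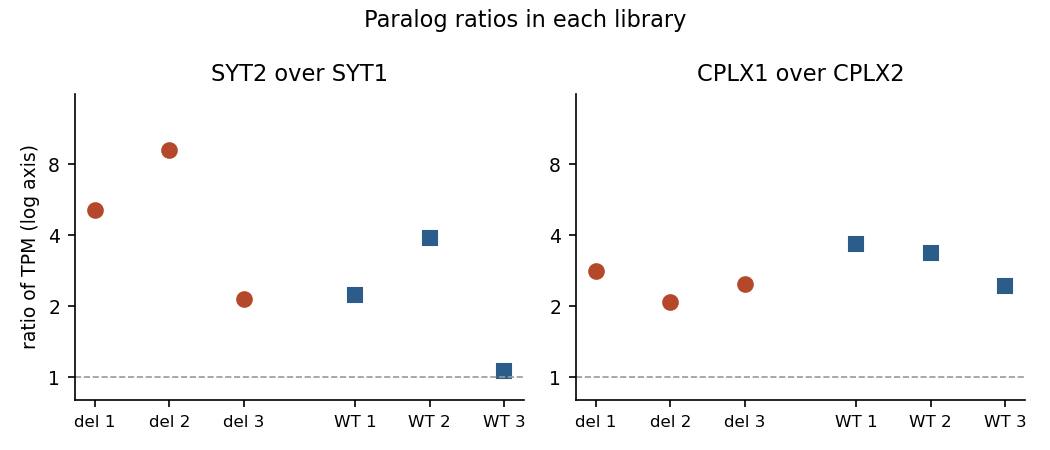
Ratio of TPM (log axis) of SYT2 over SYT1 and of CPLX1 over CPLX2 in each library, deletion (del) circles left and wild-type (WT) squares right; the dashed line marks equal TPM. SYT2 over SYT1 runs from 1.06 to 9.18 and CPLX1 over CPLX2 from 2.09 to 3.68, and the groups overlap in both.

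Scaffolds and priming factors of the active zone showed small differences. BSN encodes bassoon, a giant scaffold protein, and had 32.9, 36.6 and 49.1 CPM in deletion, against 27.6, 30.9 and 32.7 CPM in wild type. Deletion replicate 1 and wild-type replicate 3 nearly met, and the log2 fold change was 0.38 (SE 0.17), and 0.15 without deletion replicate 3. PCLO, the related scaffold piccolo, had 15.9, 19.5 and 23.7 CPM in deletion and 10.6, 12.8 and 17.3 CPM in wild type, with overlap (0.54, SE 0.22, and 0.35 without deletion replicate 3). UNC13C, a priming factor known from rodent cerebellum, had 2.85, 3.83 and 11.1 CPM in deletion and 3.40, 4.30 and 6.56 CPM in wild type. In both groups replicate 3 was the highest library for UNC13C, and the log2 fold change of 0.32 (SE 0.52) was -0.54 without deletion replicate 3.

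RAB3 GTPases ride on vesicles and recruit effectors that tether them to the release site. RAB3A, the major neuronal form, had 343, 445 and 345 CPM in deletion, against 247, 240 and 138 CPM in wild type, without overlap (log2 fold change 0.86, SE 0.24; edgeR quasi-likelihood adjusted p 0.112), and its value was 0.57 without wild-type replicate 3. RAB3C had 23.4, 55.3 and 48.2 CPM in deletion, against 10.4, 15.9 and 20.6 CPM in wild type, also without overlap (1.43, SE 0.36; edgeR quasi-likelihood adjusted p 0.0929). RAB3B had 83.6, 139 and 54.7 CPM in deletion, against 39.9, 51.7 and 63.2 CPM in wild type. For RAB3B deletion replicate 3, the highest library for 18 of the members, was the lowest of its group and lay below wild-type replicate 3 (0.84, SE 0.33, and 0.42 without deletion replicate 2). Per length RAB3A led the family with a mean of 663 TPM in deletion and 377 TPM in wild type, followed by RAB3B with 45.8 and 27.7 TPM and RAB3C with 14.7 and 5.86 TPM.

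The effectors of RAB3 gave fold changes of different size. RPH3A, the effector rabphilin, had 62.6, 129 and 89.0 CPM in deletion, against 38.0, 61.2 and 23.7 CPM in wild type. These libraries did not overlap, though deletion replicate 1 and wild-type replicate 2 nearly met (log2 fold change 1.19, SE 0.37; edgeR quasi-likelihood adjusted p 0.138). RIMS1 and RIMS2 encode RIM proteins, which link RAB3 and calcium channels at the active zone. RIMS1 had 19.2, 18.7 and 19.9 CPM in deletion, against 12.3, 10.8 and 19.7 CPM in wild type: the deletion libraries lay within 1.07-fold of each other and wild-type replicate 3 lay among them. Its log2 fold change was 0.43 (SE 0.22; edgeR quasi-likelihood adjusted p 0.342), and without wild-type replicate 3 it was 0.68 and past the threshold (edgeR quasi-likelihood adjusted p 0.0339). Without wild-type replicate 2 it was 0.26. RIMS2 had 16.5, 19.3 and 21.6 CPM in deletion and 13.8, 11.98 and 16.8 CPM in wild type (0.43, SE 0.17).

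Synapsins hold the reserve pool of vesicles together. All 3 were higher in every deletion library than in any wild-type library. SYN1 had 136, 169 and 188 CPM against 111, 112 and 44.3 CPM in wild type (log2 fold change 0.89, SE 0.34; edgeR quasi-likelihood adjusted p 0.199). SYN2 had 59.5, 84.0 and 107 CPM against 51.5, 55.8 and 29.4 CPM in wild type (0.88, SE 0.29; edgeR quasi-likelihood adjusted p 0.152). For SYN2 deletion replicate 1 and wild-type replicate 2 nearly met, and for both genes wild-type replicate 3 was the lowest library. Without it the log2 fold change was 0.50 for SYN1 and 0.58 for SYN2. SYN3 had the lowest level per length of the 34 genes, at a median of 1.17 TPM over the 6 libraries. It had 2.60, 3.83 and 4.36 CPM against 0.528, 1.56 and 2.57 CPM in wild type (1.19, SE 0.51, edgeR quasi-likelihood adjusted p 0.241). Wild-type replicate 1 held 9 reads of it. For SYN3 deletion replicate 1 and wild-type replicate 3 nearly met, at 52 and 56 reads before scaling.

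Of the synucleins, small proteins that associate with vesicle membranes, SNCG had 186, 308 and 164 CPM in deletion, against 131, 133 and 27.5 CPM in wild type. The groups did not overlap, and wild-type replicate 3 was far below the others of its group (log2 fold change 1.18, SE 0.55; edgeR quasi-likelihood adjusted p 0.293), and its value was 0.67 without that library. SNCB had 89.0, 93.3 and 141 CPM in deletion and 122, 101 and 35.3 CPM in wild type, with overlap (0.33, SE 0.42), and its value was -0.11 without wild-type replicate 3. Of the endocytic proteins, DNM1, the neuronal dynamin that cuts vesicles from the membrane, had 283, 382 and 331 CPM in deletion, against 203, 247 and 89.5 CPM in wild type. It did not overlap (0.88, SE 0.34; edgeR quasi-likelihood adjusted p 0.205), and its value was 0.50 without wild-type replicate 3. AMPH, amphiphysin, which brings dynamin to the vesicle neck, had 65.0, 76.2 and 95.6 CPM in deletion and 51.2, 60.5 and 80.2 CPM in wild type and overlapped (0.30, SE 0.20, and 0.11 without deletion replicate 3).

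The same few libraries were highest and lowest across roles. The highest of the 6 libraries was deletion replicate 2 for 16 members and deletion replicate 3 for 18, and never deletion replicate 1 or a wild-type library. The lowest was wild-type replicate 3 for 16 members, wild-type replicate 1 for 10, wild-type replicate 2 for 3, deletion replicate 2 for 3 and deletion replicate 1 for 2. Summed over the 34 genes the level was 5060, 6948 and 5633 CPM in deletion replicates 1 to 3, against 3604, 3843 and 2478 CPM in wild-type replicates 1 to 3. Between the animals of prefix 14, 1 per genotype, 27 members were higher in the deletion library with a median log2 difference of 0.48. Between those of prefix 15, 33 were higher with a median of 1.002. What the prefix stands for is not stated. Leaving out a single library turned the log2 fold change or moved it by over 1.5 times in 23 members in all, in 16 without wild-type replicate 3 and in 11 without deletion replicate 3.

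Markers of neuron types and of other tissues also differed between the groups. The mean of 20 general neuron markers, none of them a member, was 7.10, 7.58 and 7.32 log2 CPM in deletion libraries, against 6.27, 6.62 and 5.92 in wild type. All 20 had a positive log2 fold change, with a median of 0.95 and none past the threshold. At an unadjusted p under 0.05 by edgeR's quasi-likelihood test 16 were higher, against 11.1% of all tested genes. Motor neuron markers averaged 4.20, 4.82 and 3.58 log2 CPM in deletion, against 2.34, 2.92 and 1.12 in wild type. Of 12 tested, 11 were positive and 1, CHRNA4, negative, and none was past the threshold by edgeR's quasi-likelihood test. CHAT, which makes acetylcholine, averaged 7.27 CPM in deletion and 0.767 CPM in wild type (edgeR quasi-likelihood adjusted p 0.101). In wild-type replicates 1 to 3 CHAT had 5, 42 and 4 reads. The general neuron and motor neuron means were highest in deletion replicate 2, the highest library for 16 members. Excitatory dorsal horn markers were highest in deletion replicate 3, with a sum of 86.9 CPM against 21.6 and 28.0 CPM in deletion replicates 1 and 2 and 30.2, 36.6 and 34.7 CPM in wild type. Deletion replicate 3 was the highest library for the other 18 members. Inhibitory neuron markers summed to 289, 352 and 432 CPM in deletion, against 227, 290 and 237 CPM in wild type.

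Markers of meninges, vessels and Schwann cells lay the other way. Meninges and fibroblast genes summed to 768, 420 and 612 CPM in deletion, against 3573, 3298 and 2667 CPM in wild type, and 8 of 11 tested were lower and none higher. Endothelial and mural genes summed to 543, 396 and 471 CPM against 1908, 3211 and 791 CPM in wild type, with 3 of 12 lower. Schwann cell genes had means of 5.10, 5.92 and 4.87 log2 CPM against 7.52, 8.08 and 6.995 in wild type, with 1 of 9 lower. Oligodendrocyte, astrocyte and microglia lists had medians of 0.23, 0.07 and -0.09 over 12, 9 and 9 tested genes, with none past the threshold. Dorsal root ganglion markers summed to 117, 209 and 94.7 CPM in deletion and 30.3, 45.4 and 22.8 CPM in wild type, and 1 of 7 tested, TRPM8, was higher by edgeR's quasi-likelihood test. Blood genes summed to 41.5, 139 and 34.6 CPM in deletion and 212, 61.9 and 101 CPM in wild type, with none of 5 past the threshold. These calls depended on the fit. With the ID prefix as a block 2 meninges genes, COL1A2 and DCN, were still lower and no vessel, Schwann cell or ganglion gene was called, and in prefix 15 alone none of these 4 lists had a call. Leaving out a single library left between 0 and 10 meninges, 0 and 9 vessel and 0 and 4 Schwann cell genes lower, the most without wild-type replicate 3 in each case, and of these 6 settings TRPM8 was called in that one only. The medians of these lists kept their sign in all settings. Of the defining markers with a row, none was at 0 in all libraries. The part of these differences in the values of the release genes was not tested.

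**Figure D4:**
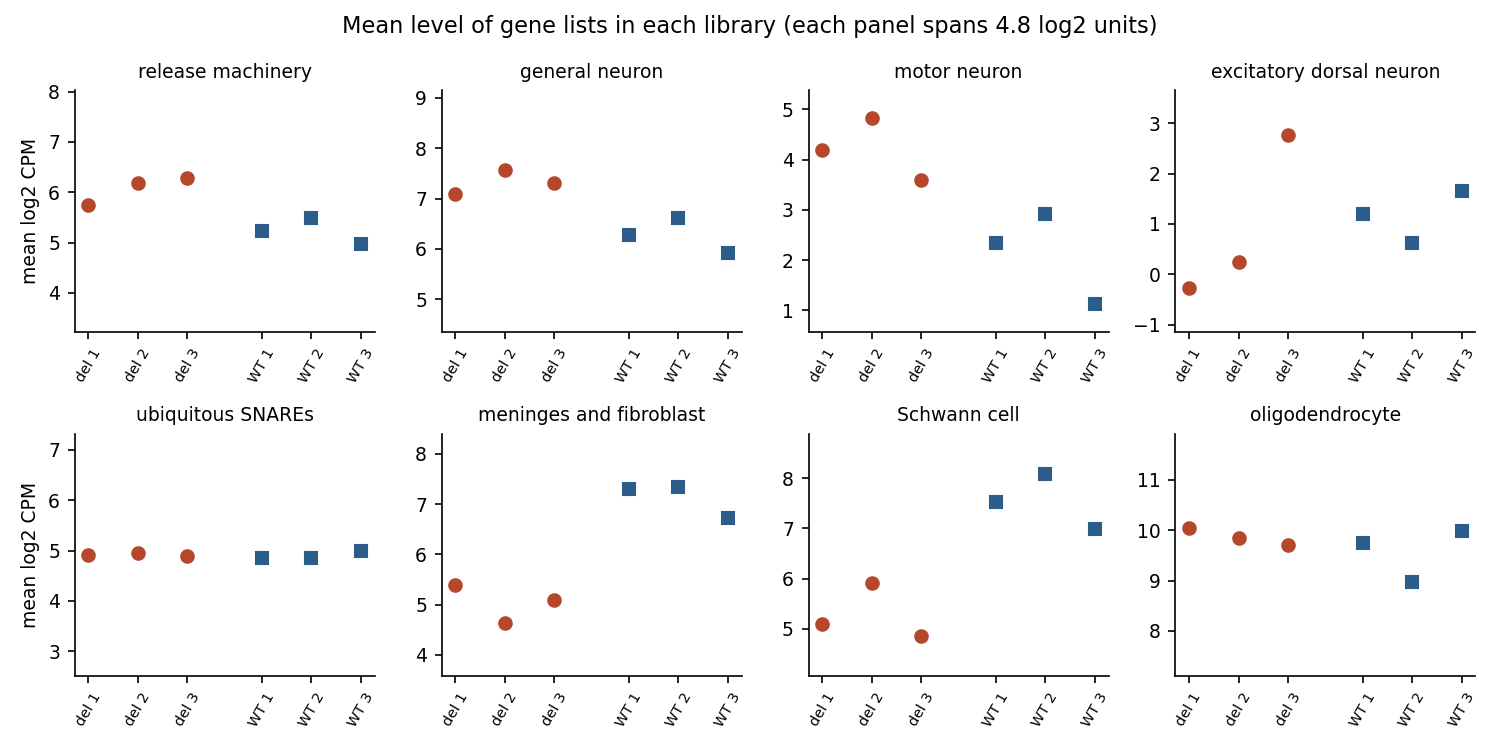
Mean log2 CPM (y axis, each panel spanning the same range) of the tested genes of 8 lists in each library, deletion (del) circles left and wild-type (WT) squares right. The release genes, general neuron and motor neuron lists lie higher in all 3 deletion libraries, the meninges and Schwann cell lists lower, and the excitatory dorsal list is highest in deletion replicate 3.

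Set against the mean of the general neuron markers in the same library, 16 of the 19 release genes that had separated the groups overlapped. On this relative scale 10 of the 34 members had a positive and 24 a negative difference, and the groups overlapped in 29. SV2C alone lay above wild type without overlap, by 1.40 on the log2 scale. BSN, AMPH, SYP and SV2A lay below without overlap, by -0.70, -0.75, -0.18 and -1.002, and of these AMPH and SV2A had overlapped on the CPM scale. SYT2 and CPLX2 gave relative differences of 0.46 and 0.50 and SYT1 and STX1A -0.68 and -1.33, all with overlap. These are descriptions with no test, and the share of all tested genes without overlap on this scale is not given here.

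Further genes of the same pathway, from lists that exclude the 34, showed the same direction with smaller values. Of 79 genes 77 had a row and 72 were tested: 62 were positive with a median log2 fold change of 0.39. Over all tested genes 56.7% were positive. Without overlap 32 were higher and 3 lower, against backgrounds of 15.2% and 11.2%. None was past the threshold, although 28 were higher and 1 lower at an unadjusted p under 0.05 by edgeR's quasi-likelihood test. The backgrounds at that p were 11.1% and 9.09%. The list of SNAREs and their regulators, which also held the clathrin assembly gene SNAP91, was positive in 12 of 13 cases with a median of 0.52. SNAP91, the clathrin assembly protein AP180, stood at 66.3 CPM in deletion and 25.7 CPM in wild type (1.36, SE 0.28). PRRT2, which restrains SNARE assembly, stood at 43.4 CPM in deletion and 19.6 CPM in wild type (1.14, SE 0.25). The edgeR quasi-likelihood adjusted p was 0.0713 for SNAP91 and 0.0757 for PRRT2.

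Calcium sensors outside the 34 had a median of 0.39 over 9 tested genes, 7 of them positive. SYT6 gave 0.81 (SE 0.23), SYT9 0.52 (SE 0.25) and SYT12 0.71 (SE 0.37) on the log2 scale. Active zone genes had a median of 0.28 over 18, with 13 positive. PPFIA2, a liprin scaffold, and RAB3IP, an exchange factor of RAB GTPases, gave 1.16 (SE 0.23) and 0.59 (SE 0.15). UNC13B, the priming factor Munc13-2, lay the other way, at 13.4 CPM in deletion and 23.4 CPM in wild type (-0.81, SE 0.18; edgeR quasi-likelihood adjusted p 0.0802), without overlap. Vesicle pumps, transporters and related membrane proteins had a median of 0.56 over 12, with 11 positive. DNAJC5, a vesicle chaperone, and the proton pump subunits ATP6V1B2 and ATP6V0A1 gave 0.55 (SE 0.12), 0.77 (SE 0.18) and 0.47 (SE 0.12). Endocytosis genes had a median of 0.27 over 20, with 19 positive, and AAK1, SYNJ1 and SH3GL2 gave 0.78 (SE 0.17), 0.70 (SE 0.20) and 0.92 (SE 0.27). By edgeR's quasi-likelihood test the adjusted p of these 12 genes lay between 0.0627 for PPFIA2 and 0.355 for SYT12.

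SNAREs and partners that most cell types use gave a median near 0. Of 18 tested, 12 were positive and 6 negative, with a median log2 fold change of 0.06, and 1 was higher and 1 lower without overlap. None was past the threshold by edgeR's quasi-likelihood test, and at an unadjusted p under 0.05 none was higher and 1 lower. The background without overlap was 15.2% higher and 11.2% lower, and at that p it was 11.1% and 9.09%. VAMP5, a SNARE known from muscle and endothelium, stood at 10.0 CPM in deletion and 14.4 CPM in wild type (-0.52, SE 0.14). STX12 and SEC22B, of endosomes and the secretory pathway, gave 0.26 (SE 0.12) and 0.26 (SE 0.13), and the edgeR quasi-likelihood adjusted p of these 3 genes were 0.101, 0.275 and 0.325.

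In the authors' deposited table SV2C was listed as 5.98-fold higher in deletion, CPLX2 as 2.82-fold, SYT2 as 2.60-fold and SYNGR1 as 1.71-fold, each at a false discovery rate under 0.05. The authors' deposited table listed CPLX1 at 2.02-fold and SNAP25 at 1.92-fold with rates of 0.0452 and 0.0469, near that threshold, and SYT1 at 1.43-fold and VAMP2 at 1.19-fold with rates of 0.339 and 0.636. Of these genes SYNGR1 alone was past the threshold by edgeR's quasi-likelihood test.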

How the data were processed

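Per the labels' protocols, frozen cord was extracted on columns, and poly(A)-selected stranded libraries were sequenced as paired ends on a NovaSeq 6000. The aligner, counter, annotation, build and strand setting were not given in the sources used here. Reads shared with antisense or near-identical genes therefore cannot be told apart, and no coordinates or sequences are printed.

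The authors deposited whole-number exon read counts per gene, blank where a gene had none, and these enter all tests. TPM as deposited was used for ratios and for levels between genes. The authors' RPKM and a deposited signal column, headed CPM but scaled per library to sums of 917605 to 1075791, were not used. The authors' deposited table holds p-values and false discovery rates and a score, the fold change with a sign; its test is not stated.

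Genes were kept by filterByExpr, TMM-scaled and tested in edgeR 4.0.16 (R 4.3.3) by the robust quasi-likelihood test with Benjamini-Hochberg adjustment over all 14566 genes, without covariates. SEs and 95% intervals come from the quasi-likelihood statistic. Log2 CPM used a prior count of 2. DESeq2 1.42.0 and limma 3.58.1 (voom) were alternatives, and all 3 were tested on simulated data. Replicate numbers only name animals. None of 15 library pairs agreed within sampling noise (chi-square per degree of freedom at least 29.7). Floors of 3 reads cover counting error only. Members, lists and the rule for named genes (every member with a row, UBE3A, and of each pathway list the 3 genes with the smallest p) were chosen with earlier results of these data known. Some genes under this rule are not reported here.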

Additional observations from a re-analysis of the deposited data

How the results depend on the processing

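In every alternative the median log2 fold change of the 34 members stayed positive, from 0.57 without wild-type replicate 3 to 0.998 without wild-type replicate 2, and no member was called lower. The count of members called higher was 1, against 0 under RLE scaling, total count scaling, the ID prefix as a block and prefix 15 alone, and 10 under DESeq2, namely CPLX2, NSF, RAB3A, RAB3C, RPH3A, SV2C, SYNGR1, SYNGR3, SYP and SYT4; leaving out single libraries gave 0 to 2. Over all genes the count higher was 26, against 9 under RLE scaling, 6 under total count scaling, 77 with no filter, 577 under DESeq2, 94 under voom and 0 both with the block and in prefix 15 alone, with 0 to 120 when single libraries were left out. The count lower was 123, against 781 under DESeq2, 344 under voom, 3 with the block and 0 in prefix 15 alone, with 0 to 639 when single libraries were left out. With total counts 6 genes were higher and 94 lower. In prefix 15 alone 1608 genes had an unadjusted p under 0.05. The UBE3A call was lost with the block (log2 fold change -1.39, edgeR quasi-likelihood adjusted p 0.0526) and in prefix 15 alone (-1.44, 0.358), and ranged from -1.51 to -1.33 when single libraries were left out. Signs turned when single libraries were left out for STX1A (-0.88 to 0.22), SYT1 (-0.085 to 0.75), SYT7 (-0.37 to 0.67), SV2A (-0.24 to 0.34), UNC13C (-0.54 to 0.65) and SNCB (-0.11 to 0.66), and STX1A gave 0.15 in prefix 15 alone. The log2 ratio differences ranged from 0.65 to 1.70 for SYT2 over SYT1 and from -0.53 to -0.23 for CPLX1 over CPLX2, and kept their sign in all settings run. Bias-adjusted deviances, added after the data were seen, changed no call of a member. No paired analysis was possible because the replicate numbers were given in accession order and pair no animals. Causes of these differences were not tested.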

Other observations

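Some genes next to the members were chosen after their values were seen. RAB3D, the RAB3 form known from secretory cells, stood at 15.7 CPM in deletion and 5.35 CPM in wild type without overlap (1.55, SE 0.43, edgeR quasi-likelihood adjusted p 0.109). Among vesicular transporters, SLC18A3, which loads acetylcholine, stood at 75.9 CPM in deletion and 11.6 CPM in wild type (2.71, SE 0.99, edgeR quasi-likelihood adjusted p 0.193). Its wild-type libraries ran from 0.505 CPM in replicate 3 to 20.8 CPM in replicate 2. SLC32A1, which loads GABA and glycine, and SLC17A6, which loads glutamate, gave 0.41 (SE 0.33) and 0.57 (SE 0.39) and overlapped.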
